A study of Mus musculus with 5 samples.

Results

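Cell cycle and DNA replication genes were examined for H2A.Z and ANP32E in mouse hearts with and without pressure overload. The 46 genes, of 17548 gene symbols listed in the deposited tables, comprised 23 regulators of the G1/S transition, 10 replication genes and 13 mitotic genes. A gene's promoter was the listed region whose centre lay closest to the gene's start, provided that this distance was at most 1000 bp or at most 50% of the region's length. Whole hearts came from male C57BL/6 mice aged 12 weeks, either after a sham operation or 4 days after transaortic coarctation (TAC), a constriction of the aorta that makes the heart pump against a raised pressure. Chromatin immunoprecipitation followed by sequencing was done with an antibody to H2A.Z and another to ANP32E, so that each antibody gave 1 sham and 1 TAC library, beside 1 input from pooled heart. No group had replicates, the number of animals behind each library is not given in the labels, and all differences below compare single libraries without a test.

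H2A.Z is a variant of histone H2A that sits in the nucleosomes flanking the start sites of many genes, and ANP32E is a chaperone that binds H2A.Z and can take it out of chromatin. Cells enter the cycle when cyclin-dependent kinases phosphorylate the retinoblastoma family proteins and release E2F factors, which switch on cyclin E and the replication machinery. Mitotic genes are switched on later, through promoters with CHR elements and CCAAT boxes that are read by the MuvB complexes and NF-Y. Most adult cardiomyocytes have left the cycle and grow in size under pressure overload, while fibroblasts, endothelial cells and leukocytes of the heart can divide. In whole hearts, a difference in the share of cells that carry a protein at a site and a difference in its amount per cell cannot be told apart.

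There were 31098 H2A.Z regions and 8444 ANP32E regions. The median log2 ratio of TAC to sham over all regions was 0.014 for H2A.Z and -0.26 for ANP32E, so ANP32E was lower over the table as a whole. Signal is given in the deposited units, whose scaling is unknown, so levels were compared within a table only, and ratios are log2((TAC + 1)/(sham + 1)). A promoter was counted as higher or lower past 1.5-fold. Of the markers of the labelled tissue, 1 of 6 cardiomyocyte genes (Tnnt2) had an H2A.Z promoter region and 3 of 6 (Myh6, Ttn and Pln) an ANP32E region. All 4 endothelial, 2 of 4 fibroblast and 1 of 4 leukocyte markers had an H2A.Z promoter region. ANP32E promoter regions were present at 2 endothelial markers and at 0 fibroblast and 0 leukocyte markers. Occupancy of a promoter is no measure of expression, so these counts do not give the makeup of the tissue.

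The 3 roles had different promoter sequences. RefSeq promoters of assembly GRCm38.p6, the build of the tables, covered 250 bases before to 50 after a gene's start and were found for 36 of the 46 genes. In 34 of these the start lay inside the gene's H2A.Z promoter region. An E2F-type site was any of TTTCCCGC, TTTCGCGC, TTTGCCGC or TTTGGCGC, the CHR element was TTTGAA and the CCAAT box was CCAAT, each searched on both strands. Of 9 replication promoters 7 held an E2F-type site (77.8%), as did 6 of 16 G1/S promoters (37.5%) and 1 of 11 mitotic promoters (9.09%), against 2.26% of all 32851 promoters in the table. The CHR element was in 9 of 11 mitotic promoters (81.8%), in 1 replication promoter and in 3 G1/S promoters, against 17.9% of all. The CCAAT box was in all 11 mitotic promoters, 7 replication promoters and 8 G1/S promoters, against 37.4% of all. Among the 12452 promoters of genes with an H2A.Z promoter, 3.78% held an E2F-type site, 11.3% a CHR element and 36.9% a CCAAT box. Matches overlapped in 3 cases, 2 of them between E2F-type sites, and a match describes letters, not a bound site. Some windows lay off the start implied by the region distances. The offset was 426 bp for E2f1, 419.5 bp for Cdk6 and 555 bp for E2f8, whose windows held no E2F-type site. It was 120 bp for E2f2 and 262 bp for Cdc6, whose windows held one. The genes with no promoter in the RefSeq table were Ccnd1, Ccnd2, Ccne2, Cdkn1c, E2f4, E2f5, Rb1, Mcm4, Ccna2 and Aurkb.

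**Figure D1:**
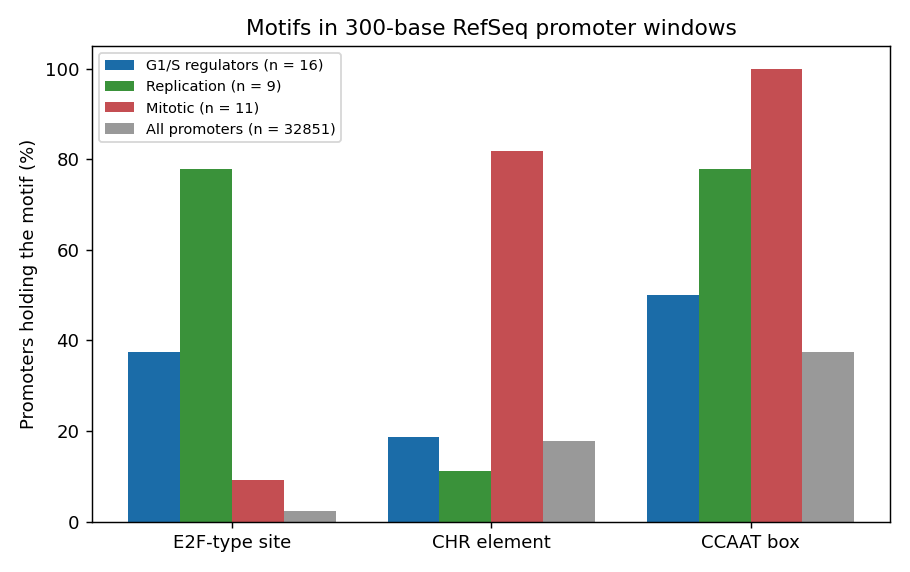
Share of RefSeq promoter windows (300 bases) that held an E2F-type site, a CHR element or a CCAAT box on either strand, by role of the gene and over all 32851 promoters. E2F-type sites were in 77.8% of replication promoters and CHR elements in 81.8% of mitotic promoters.

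The promoters below are those of genes with high or low ratios described further on and, for its E2F-type site, that of Cdk1. They are shown 5′ to 3′ on the gene's strand with the motif matches in capitals. Plk1 (chr7:122159185-122159484, plus strand), Cdc20 (chr4:118437294-118437593, minus strand), Kif11 (chr19:37376132-37376431, plus strand) and Cdk1 (chr10:69352863-69353162, minus strand) are mitotic genes. In each, the CHR element lies within 71 bases upstream to 30 bases downstream of the start, next to a CCAAT box in one of its orientations. Cdk1 was the single mitotic promoter with an E2F-type site.
Plk1: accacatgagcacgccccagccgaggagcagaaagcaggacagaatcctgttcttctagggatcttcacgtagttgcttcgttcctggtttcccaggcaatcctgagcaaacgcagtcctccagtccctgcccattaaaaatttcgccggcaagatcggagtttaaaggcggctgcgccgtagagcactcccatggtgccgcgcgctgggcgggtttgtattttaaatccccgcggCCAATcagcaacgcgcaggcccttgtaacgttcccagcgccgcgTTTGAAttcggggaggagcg
Cdc20: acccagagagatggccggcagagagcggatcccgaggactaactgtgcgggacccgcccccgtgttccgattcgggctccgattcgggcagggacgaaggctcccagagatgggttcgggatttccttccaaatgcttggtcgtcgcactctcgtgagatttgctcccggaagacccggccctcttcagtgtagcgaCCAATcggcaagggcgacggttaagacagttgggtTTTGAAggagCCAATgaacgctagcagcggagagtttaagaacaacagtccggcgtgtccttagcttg
Kif11: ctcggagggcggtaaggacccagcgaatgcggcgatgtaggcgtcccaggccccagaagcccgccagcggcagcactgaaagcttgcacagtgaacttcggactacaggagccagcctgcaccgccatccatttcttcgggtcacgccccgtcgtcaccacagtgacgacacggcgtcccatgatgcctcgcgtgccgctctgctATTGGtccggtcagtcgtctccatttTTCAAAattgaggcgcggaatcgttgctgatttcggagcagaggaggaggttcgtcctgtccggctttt
Cdk1: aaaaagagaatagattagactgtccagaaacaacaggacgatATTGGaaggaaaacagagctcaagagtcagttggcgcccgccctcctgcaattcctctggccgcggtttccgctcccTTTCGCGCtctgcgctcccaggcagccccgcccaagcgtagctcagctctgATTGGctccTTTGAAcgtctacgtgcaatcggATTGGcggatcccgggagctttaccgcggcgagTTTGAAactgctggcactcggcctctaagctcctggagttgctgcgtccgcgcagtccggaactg

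Mcm6 (chr1:128359656-128359955, minus strand) and Orc1 (chr4:108579204-108579503, plus strand) show the replication type, with E2F-type sites and CCAAT boxes. In Mcm6, a pair of E2F-type sites on opposite strands overlaps 110 bases upstream of the start, and another E2F-type site begins 47 bases upstream. Orc1 has an E2F-type site 27 bases upstream of its start.
Mcm6: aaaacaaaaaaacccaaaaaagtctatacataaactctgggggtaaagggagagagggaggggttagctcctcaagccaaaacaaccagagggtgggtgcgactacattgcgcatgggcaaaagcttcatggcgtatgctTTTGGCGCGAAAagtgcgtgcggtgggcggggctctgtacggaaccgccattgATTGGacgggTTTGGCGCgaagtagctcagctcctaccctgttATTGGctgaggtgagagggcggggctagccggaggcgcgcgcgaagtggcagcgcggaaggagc
Orc1: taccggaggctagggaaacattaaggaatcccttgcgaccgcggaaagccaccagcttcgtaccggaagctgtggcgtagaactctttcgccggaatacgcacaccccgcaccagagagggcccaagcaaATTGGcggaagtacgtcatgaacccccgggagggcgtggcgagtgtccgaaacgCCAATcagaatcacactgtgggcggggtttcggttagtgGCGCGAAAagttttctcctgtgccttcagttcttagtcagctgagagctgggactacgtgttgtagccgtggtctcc

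E2f3 (chr13:29986014-29986313, minus strand) and Ccne1 (chr7:38107441-38107740, minus strand) were the G1/S promoters with the highest ANP32E ratios. The window of E2f3 holds all 3 motifs, with the E2F-type site 11 bases upstream of the start, whereas none of the searched letters occur in that of Ccne1.
E2f3: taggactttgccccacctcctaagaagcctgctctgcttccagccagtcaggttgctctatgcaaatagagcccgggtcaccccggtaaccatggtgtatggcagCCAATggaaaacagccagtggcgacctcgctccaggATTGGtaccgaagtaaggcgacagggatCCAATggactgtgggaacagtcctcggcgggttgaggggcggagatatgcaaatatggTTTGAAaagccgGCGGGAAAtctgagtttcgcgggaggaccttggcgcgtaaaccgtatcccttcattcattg
Ccne1: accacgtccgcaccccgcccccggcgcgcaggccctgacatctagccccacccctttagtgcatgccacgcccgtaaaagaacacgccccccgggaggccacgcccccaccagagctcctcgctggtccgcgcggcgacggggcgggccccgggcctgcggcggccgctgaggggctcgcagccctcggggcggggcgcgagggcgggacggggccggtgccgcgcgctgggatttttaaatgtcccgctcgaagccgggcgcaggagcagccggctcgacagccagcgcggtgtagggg

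H2A.Z occupied the promoters of 43 of the 46 genes (93.5%), compared with 53% of RefSeq protein-coding symbols. All 43 regions were called in both sham and TAC hearts, as were 13216 of all 13738 H2A.Z promoters, and all 43 overlapped a CpG island, compared with 84.2% of all H2A.Z promoters. The median region length was 5478 bp, against 4291 bp over all H2A.Z promoters. None of the 43 promoters was past 1.5-fold in either direction. That background was low, since 0.437% of all 13738 H2A.Z promoters were higher and 0.146% lower. The median ratio of the 43 was 0.027 (SD 0.12 over genes), beside 0.035 (SD 0.16) over all promoters, with 23 ratios above 0 and 20 below. Over all H2A.Z promoters 60.1% were above 0.

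H2A.Z levels differed between the roles. The median average signal of the 23 G1/S promoters was 35.2 in sham and 34.4 in TAC, that of the 8 replication promoters 33.3 and 33.7, and that of the 12 mitotic promoters 23.8 and 25.8. Over all H2A.Z promoters the medians were 27.6 and 28.4. By mean signal, the median G1/S promoter stood at percentile 75.7 among all H2A.Z promoters, the median replication promoter at 71.5 and the median mitotic promoter at 36.9. The ranges overlapped, from 23.0 to 62.8 in sham for G1/S, from 22.3 to 52.6 for replication and from 13.7 to 41.1 for mitotic genes.

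**Figure D2:**
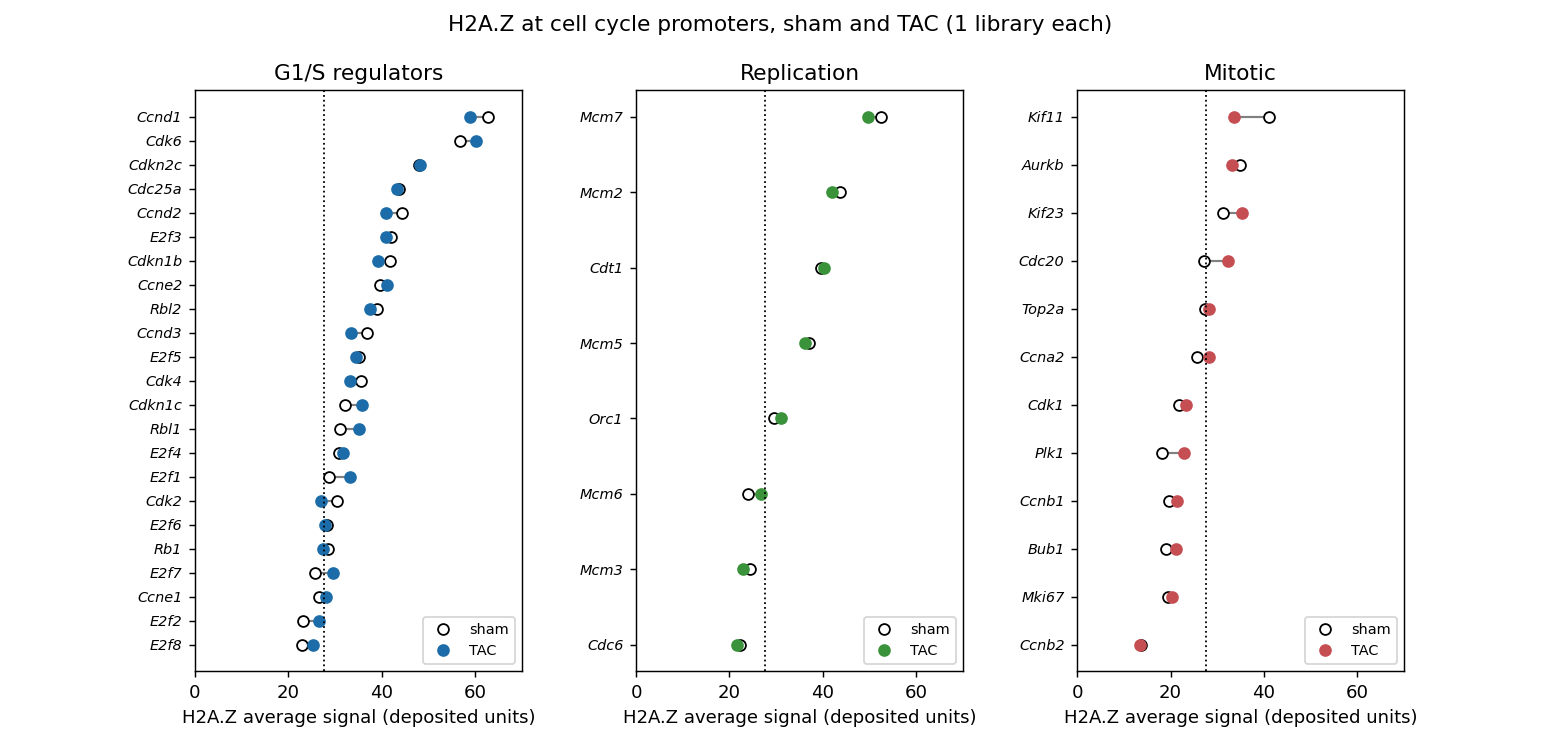
H2A.Z average signal (deposited units) at each promoter in sham (open circles) and TAC (filled circles), 1 library each, with genes ordered by mean signal and the dotted line at the sham median of all H2A.Z promoters (27.6). G1/S genes reached 62.8 at Ccnd1, and 9 of the 12 mitotic promoters stood below the line in sham.

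Among the G1/S regulators, Ccnd1, Cdk6 and Ccnd2 were among the promoters with strong H2A.Z signal, and Ccnd3 and Cdk4 were near the median of the role. Ccnd1, cyclin D1, had an average signal of 62.8 in sham and 58.9 in TAC over a region of 9401 bp with 4 CpG islands (chr7:144936480-144945881), above 99.9% of H2A.Z promoters by mean signal. Cdk6, a kinase partner of D-type cyclins, had 56.7 and 60.2. Ccnd2 had 44.4 and 40.8, Ccnd3 36.9 and 33.3, and Cdk4 35.5 and 33.1. The log2 ratio was thus below 0 at all 3 D-type cyclins (-0.091, -0.12 and -0.14 for Ccnd1, Ccnd2 and Ccnd3) and at Cdk4 (-0.095), but above 0 at Cdk6 (0.083). Peak values, the highest signal within the region, gave -0.019 at Ccnd1, 0.076 at Ccnd2, 0.011 at Ccnd3 and 0.092 at Cdk4, so the sign at the last 3 depended on the measure. Cdk2, the kinase partner of cyclins E and A, had the lowest ratio of the role, with 30.5 in sham and 27.0 in TAC (-0.17), and its peak signal was nearly level at 95 and 94.

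Among the cyclin E genes and kinase inhibitors, ratios ran from -0.086 at Cdkn1b to 0.15 at Cdkn1c. Ccne1 had 26.6 in sham and 28.0 in TAC, and Ccne2 had 39.7 and 41.1. The inhibitor Cdkn1b, which encodes p27, had 41.8 and 39.3, and Cdkn2c, which encodes p18, had 47.9 and 48.3. Cdkn1c, the imprinted gene of the inhibitor p57, was the highest of the 3 inhibitors by ratio, with 32.1 in sham and 35.7 in TAC (0.15). Cdc25a, a phosphatase that activates cyclin-dependent kinases, had 43.6 and 43.3.

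The E2F genes differed in the sign of the ratio by average signal, whereas all were above 0 by peak signal. E2f1, an activator, had 28.7 in sham and 33.2 in TAC (0.20), and the activator E2f2 had 23.1 and 26.6 (0.20). The atypical repressors E2f7 and E2f8 had 25.6 and 29.7 (0.20) and 23.0 and 25.2 (0.13). These 4 ratios ranked between percentile 74.8 and 86.4 of all H2A.Z promoters, and their peak ratios were 0.27, 0.19, 0.33 and 0.37. The activator E2f3 had 42.0 in sham and 41.0 in TAC (-0.033), and E2f4, E2f5 and E2f6, which act mainly as repressors, lay between -0.030 and 0.040. Peak ratios of E2f3, E2f4, E2f5 and E2f6 were also above 0, at 0.12, 0.16, 0.095 and 0.17. The median peak ratio of all H2A.Z promoters was 0.14. Among the retinoblastoma family, Rbl1, which encodes p107, had 31.1 and 35.1 (0.17), Rbl2, which encodes p130, had 39.0 and 37.5 (-0.053), and Rb1 had 28.5 and 27.4 (-0.054). Rb1 was also lower by peak signal, at 78 in sham and 73 in TAC.

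Among the replication genes, Mcm6 had the highest H2A.Z ratio. Mcm6, a subunit of the MCM2-7 helicase that opens DNA at origins, had 23.9 in sham and 26.9 in TAC (0.16), with peak values of 87 and 115 (0.40). The other 4 helicase genes with a region were slightly lower in TAC by average signal. Mcm2 had 43.7 and 42.0 (-0.056), Mcm3 had 24.4 and 22.9 (-0.090), and Mcm5 had 37.0 and 36.2 (-0.029). Mcm7 was the strongest replication promoter, with 52.6 and 49.6 (-0.082). Their peak ratios were all above 0, from 0.057 to 0.16. Orc1, a subunit of the origin recognition complex, had 29.6 and 31.1, Cdt1, which helps load the helicase, had 39.6 and 40.3, and Cdc6, its partner in loading, had 22.3 and 21.7, the weakest of the role. Several of these regions serve neighbours as well, since the Orc1 region lists Prpf38a, the Mcm7 region Ap4m1 and the Mcm2 region Tpra1 within 1000 bp of the region's centre.

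At the mitotic genes, 9 of 12 H2A.Z ratios were above 0, beside 60.1% of all H2A.Z promoters, and the median was 0.10. Plk1, a kinase of mitotic entry and spindle assembly, had the highest ratio among the 43 promoters, with 18.3 in sham and 22.9 in TAC (0.31, or 1.24-fold; chr7:122156994-122162262). Cdc20, an activator of the anaphase-promoting complex, had 27.1 and 32.4 (0.25), and its peak signal was 85 in sham and 135 in TAC (0.66), past 1.5-fold by that measure. Kif23, a kinesin of the central spindle, had 31.1 and 35.3 (0.18). Bub1, a kinase of the spindle checkpoint, had 19.1 and 21.2 (0.15), Ccna2, cyclin A2, 25.7 and 28.3 (0.13), Ccnb1, cyclin B1, 19.7 and 21.3 (0.11), and Cdk1, the kinase that cyclin B activates, 21.8 and 23.4 (0.094). Mki67, the gene of the proliferation marker Ki-67, had 19.5 and 20.3 (0.051), and Top2a, a topoisomerase that untangles chromosomes, had 27.4 and 28.3 (0.047).

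The remaining 3 mitotic promoters were lower in TAC. Kif11, the kinesin that pushes spindle poles apart, had the strongest sham signal and the lowest ratio of the role, with 41.1 in sham and 33.6 in TAC (-0.28, or 1.22-fold lower; chr19:37373809-37379611). Its peak values were 164 and 149. Only 1.51% of all H2A.Z promoters ranked below its ratio, while Plk1 ranked at percentile 94.3. Aurkb, a kinase of the chromosomal passenger complex, had 34.8 and 33.2 over a region of 16079 bp (-0.066). Ccnb2, cyclin B2, had 13.7 and 13.4 (-0.035), the weakest signal of the 43 promoters.

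The median H2A.Z ratio was -0.0092 for G1/S, -0.035 for replication and 0.10 for mitotic promoters, and by peak signal the medians were 0.17, 0.14 and 0.21, in the same order but closer together. Peak signal was higher in TAC at 39 of the 43 promoters, compared with 74.9% of all H2A.Z promoters, and the sign of the average and peak ratios differed at 16 of the 43. Ratios also moved with signal strength over the whole table, with a median of 0.059 in the weaker and 0.021 in the stronger 50% of promoters. Among these 43 promoters, the mitotic ones were the weakest of the roles. The part of signal strength in the difference between roles was not tested.

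**Figure D3:**
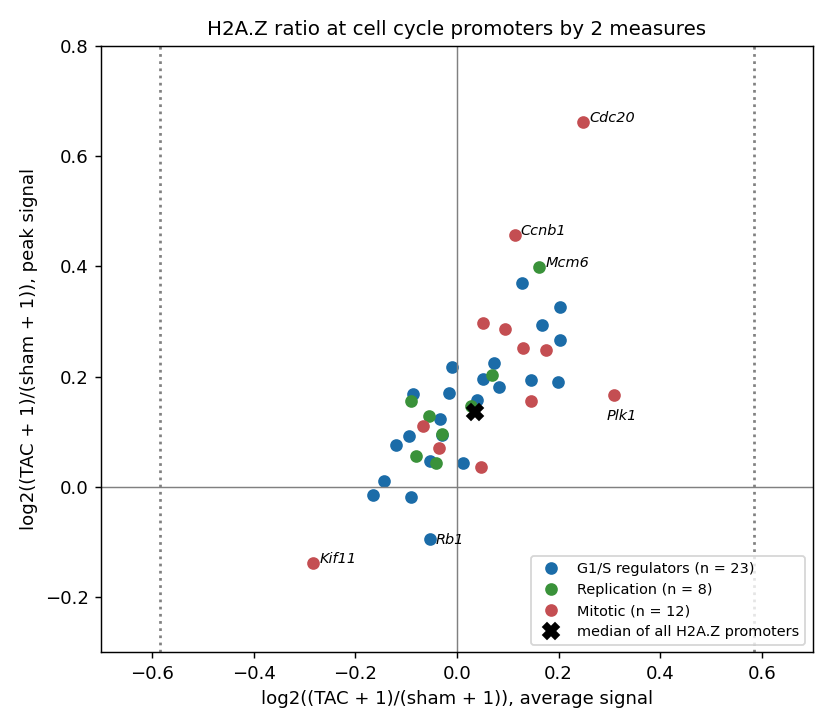
Log2 ratio of TAC to sham H2A.Z at the 43 promoters from the average signal (horizontal axis) and the peak signal (vertical axis), coloured by role, with 1.5-fold marked by dotted lines and the cross at the medians of all H2A.Z promoters (0.035 and 0.14). Points lie mostly above 0 by peak signal, Kif11 lies below 0 by both measures, and Cdc20 reaches 0.66 by peak signal.

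Pcna, Aurka and Mcm4 had no H2A.Z promoter region. Pcna, the sliding clamp of DNA polymerases, had a region ending 264 bp beyond the far end of the gene and listed first for Tmem230, with 26.5 in sham and 27.8 in TAC. ANP32E in that place was 9.26 and 6.42. Aurka, a spindle pole kinase, had its nearest H2A.Z region 7.65 kb from the gene, and Mcm4, another helicase subunit, was listed for no region in either table and lay 27.8 kb from the nearest one.

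ANP32E promoter regions were found at 15 of the 46 genes (32.6%), compared with 21.7% of RefSeq protein-coding symbols. All 15 also had an H2A.Z promoter region. Of the 43 genes with an H2A.Z promoter, 15 thus had an ANP32E promoter too, against 39.6% of all such genes. By role, ANP32E promoters were found at 8 of 23 G1/S, 5 of 10 replication and 2 of 13 mitotic genes. Each of the 15 ANP32E regions lay wholly inside the H2A.Z region and covered between 13.2% and 62.2% of it. The H2A.Z promoter regions of Ccnd1, Ccnd2, Ccnd3, Cdkn2c and Aurkb also held ANP32E regions, but these lay outside the ANP32E promoter limits. H2A.Z in sham had a median of 39.0 at the 15 genes with an ANP32E promoter. It was 27.7 at the 28 without one, among which those named were counted. The same contrast over all H2A.Z promoters was 31.8 and 24.2.

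ANP32E was higher in TAC at several G1/S promoters and lower at Orc1. Past 1.5-fold, 2 of 15 promoters were higher, compared with 4.31% of all 5494 ANP32E promoters, and 1 was lower, compared with 9.25%. The median ratio of the 15 was 0.13, beside -0.14 over all ANP32E promoters. A region enters the table when it is called in either library, and those called in a single library were selected for a difference. In the whole table, 95.4% of the promoters called in TAC only had a ratio above 0, and 96.7% of those called in sham only had one below 0. Of the 15 promoters, 7 were called in TAC only (17.8% of all ANP32E promoters), 4 in sham only (33.9%) and 4 in both. The 4 called in both had a median ratio of -0.022, and their 4 ratios ran from -0.13 to 0.13.

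Among the G1/S genes, E2f3 had the highest ANP32E ratio, with 6.25 in sham and 11.01 in TAC (0.73, or 1.66-fold; chr13:29984641-29986890). Ccne1 had 4.03 and 7.17 (0.70, or 1.62-fold), with peak values of 7 and 15, and stood at percentile 1.36 of ANP32E promoters by mean signal. Cdk6 had 5.99 and 9.36 (0.57), Rbl1 6.78 and 10.04 (0.51), and Cdkn1b 7.41 and 9 (0.25). These 5 promoters were the G1/S regions called in TAC only. Their peak values were less uniform, at 14 and 18 for E2f3 and 12 and 23 for Rbl1, equal at 18 and 18 for Cdk6, and lower in TAC at 21 and 18 for Cdkn1b. Cdk4, called in sham only, had 12.3 in sham and 9.74 in TAC (-0.31). Cdc25a and Rbl2, called in both, had 9.24 and 8.43 (-0.12) and 9.66 and 8.73 (-0.13). By peak signal Cdc25a was also lower in TAC, at 21 and 17, but Rbl2 was higher, at 20 and 24.

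Among the replication genes, Orc1 had 11.7 in sham and 4.57 in TAC (-1.19, or 2.29-fold lower; chr4:108578518-108579919), with peak values of 20 and 8. The region was called in sham only, and so had been selected for a difference, as were those of Mcm2 and Mcm7. Orc1 ranked at percentile 0.255 of all ANP32E promoters by ratio. The region lies between Orc1 and Prpf38a, a splicing factor gene, and cannot be assigned to one of them. H2A.Z in the same place was 29.6 in sham and 31.1 in TAC. Mcm7 had 11.2 and 9.78 for ANP32E (-0.18), Mcm2 8.05 and 7.56 (-0.080), Mcm5 7.97 and 8.81 (0.13) and Cdt1 10.4 and 11.1 (0.074). Except at Orc1, average signal in sham and TAC differed by at most 1.14-fold at these promoters. Peak values had the opposite sign at Mcm2 (14 and 15) and Mcm5 (16 and 15). Of the mitotic genes, Kif23 had 5.64 and 7.72 (0.39) and Top2a 6.23 and 7.73 (0.27), both called in TAC only. Their peak values were equal at 15 and 15 for Kif23, and 11 and 14 for Top2a.

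By average signal, the signs of the H2A.Z and ANP32E ratios were opposite at 4 of the 15 promoters. The same share over all promoters with both proteins was not computed. At E2f3, Cdkn1b and Mcm5 the H2A.Z ratio was slightly below 0 (-0.033, -0.086 and -0.029) and the ANP32E ratio above 0, and at Orc1 it was the reverse. Of these 4, only Orc1 kept its signs by peak signal (0.20 for H2A.Z and -1.22 for ANP32E). Both peak ratios were above 0 at E2f3 (0.12 and 0.34). At Cdkn1b (0.17 and -0.21) and Mcm5 (0.095 and -0.087) the signs were exchanged. Peak signs were opposite as well at Cdk4 (0.092 and -0.45), Cdc25a (0.22 and -0.29) and Mcm7 (0.057 and -0.061). Relative to the median of all regions of each table, average ratios were opposite at the first 4 and also at Cdc25a, Rbl2, Mcm2 and Mcm7. The number of opposite signs thus depended on the measure.

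**Figure D4:**
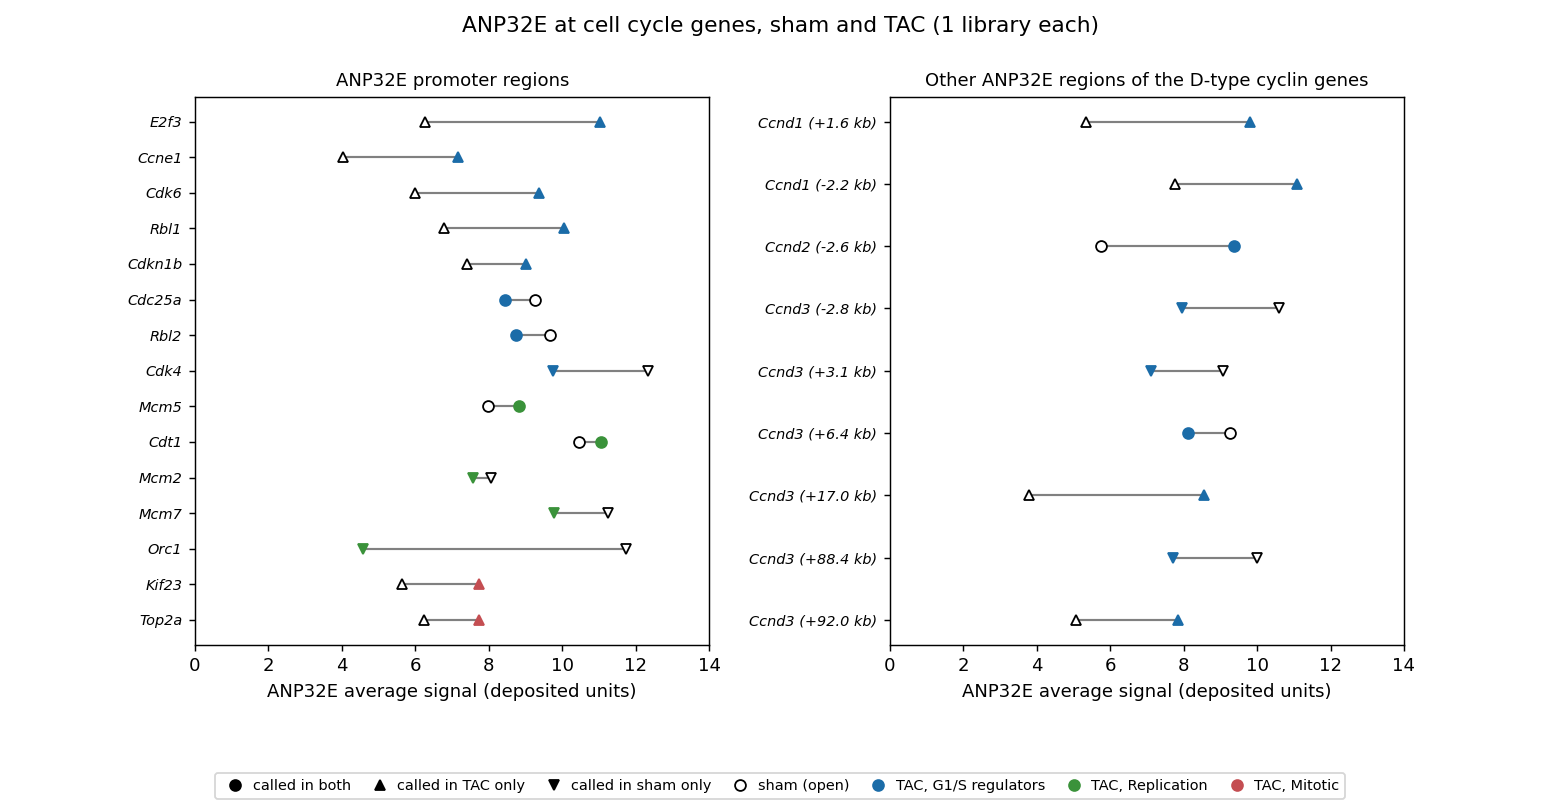
ANP32E average signal (deposited units) in sham (open) and TAC (filled), 1 library each, at the 15 promoter regions and at the other regions of the D-type cyclin genes with their distance from the gene's start. Triangles mark regions called in a single library, and the 7 promoters called in TAC only, such as E2f3 with 6.25 and 11.01, all have the higher value in TAC.

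The D-type cyclin genes, Aurkb and Cdkn2c were among the genes with ANP32E outside the promoter limits. At Ccnd1, a region 1573 bp inside the gene had 5.35 in sham and 9.82 in TAC (0.77), with peak values of 12 and 19. A region centred 2158 bp upstream had 7.78 and 11.1 (0.46), but its peak values were equal at 19 and 19. Both regions were called in TAC only and lie within the broad H2A.Z region of Ccnd1. At Ccnd2, a region centred 2594 bp upstream and called in both conditions had 5.75 and 9.37 (0.62), with peak values of 14 and 23. Ccnd3 was mixed over its 6 regions. The region 2778 bp upstream, called in sham only, had 10.6 and 7.96 (-0.37). The one 16955 bp inside the gene, called in TAC only, had 3.80 and 8.55 (0.99). Each had thus been selected for a difference. A region 6423 bp inside the gene, called in both conditions, had 9.28 and 8.12 (-0.17). H2A.Z over the site 16955 bp inside Ccnd3 was also higher in TAC, with 24.2 in sham and 31.0 in TAC and peak values of 65 and 111. For Aurkb, a region centred 4716 bp upstream had 15.8 and 11.3 (-0.45), with peak values of 36 and 23. Another, 8529 bp upstream, had 11.8 and 9.20 (-0.32). Both were called in both conditions and lie within the H2A.Z promoter region of Aurkb. A region centred 1420 bp upstream of Cdkn2c, called in both conditions, had 6.69 and 7.25 (0.10).

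Beyond promoters, the genes had 60 H2A.Z and 29 ANP32E listings, counting a region once for each gene it lists. Past 1.5-fold, 2 of the 60 H2A.Z listings were higher and 1 lower, compared with 1.57% and 3.92% of all such listings. The higher ones lay inside Ccnd3, 37221 bp (7.92 in sham and 13.3 in TAC) and 62472 bp (7.83 and 13.6) from its start, and were called in TAC only. For ANP32E, 3 of 29 were higher and 6 lower, compared with 5.07% and 24.4%. The 3 higher ones were those of Ccnd1, Ccnd2 and Ccnd3 given above. The 6 lower ones were listed for Cdk6, Rb1, E2f2, E2f5, Mcm7 and Orc1. All but that of Cdk6 also lay at the start of another gene, namely Lpar6 inside Rb1, Asap3 beyond E2f2, 1810022K09Rik beyond E2f5, Zfp113 beyond Mcm7 and Cc2d1b beyond Orc1, so these values cannot be assigned to one gene.

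A site inside Cdk6, about 122 kb from its start, was lower in TAC for both proteins. H2A.Z there was 14.4 in sham and 7.71 in TAC (-0.82; chr5:3465408-3467230), and ANP32E was 6.83 and 2.13 (-1.32; chr5:3466155-3467264). Both were called in sham only, so each had been selected for a difference. The promoter of the same gene was slightly higher for H2A.Z and 1.48-fold higher for ANP32E. At the Lpar6 start inside Rb1, the retinoblastoma gene, an ANP32E region 87546 bp from the start had 8.95 and 4.39. It was called in sham only, and so had been selected for a difference. H2A.Z at that place was 20.1 and 19.5, with peak values of 44 and 61. The region beyond E2f5, called in both conditions, had 10.03 in sham and 4.71 in TAC. The other 3 were called in sham only, with 8.13 and 4.98 beyond E2f2, 9.44 and 5.69 beyond Mcm7, and 8.57 and 5.28 beyond Orc1.

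A wider list of 85 cell cycle genes was measured in the same way. It held 38 further replication, 30 mitotic and 17 G1/S genes. For H2A.Z, 83 had a promoter, none was past 1.5-fold, and the median ratio was 0.038. The highest were Mybl2, a transcription factor of the MuvB complex (18.5 and 22.6, 0.28), and Bub3, a checkpoint protein (28.7 and 33.8, 0.23). The lowest were Wee1, a kinase that holds Cdk1 inactive (45.5 and 39.9, -0.19), and Pttg1, the securin gene (30.6 and 26.9, -0.18). The 16 further G1/S, 38 replication and 29 mitotic promoters had median ratios of 0.052, 0.048 and 0.010. Mitotic was thus the lowest of the roles, whereas it was the highest above, at 0.10 for 12 promoters. Of the 29, 16 ratios were above 0, beside 60.1% of all H2A.Z promoters. Median sham signal was 29.9, 28.4 and 29.2 in that order. The lower signal of the 12 mitotic promoters above (23.8) was thus not shared by the further 29.

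For ANP32E, 34 of the 85 genes had a promoter region, with a median ratio of -0.23, 1 higher and 5 lower past 1.5-fold, beside the 4.31% and 9.25% of all ANP32E promoters. Cdk7, the kinase that activates other cyclin-dependent kinases, was the higher one, with 4.38 in sham and 8.55 in TAC (0.83), called in TAC only. The lower ones were Nuf2, a kinetochore protein (10.5 and 5.91), Ccnc, cyclin C (8.14 and 4.88), Gmnn, the gene of the licensing inhibitor geminin (10.7 and 6.62), Mad2l1, a spindle checkpoint protein (9.47 and 5.89), and Pola2, a subunit of DNA polymerase alpha (11.6 and 7.37). Nuf2 alone of these was called in both conditions. By role the medians were 0.16 for 6 G1/S genes, -0.26 for 14 replication genes and -0.23 for 14 mitotic genes. Regions were thus present at 6 of 17 G1/S, 14 of 38 replication and 14 of 30 mitotic genes. Among the genes above these counts were 8 of 23, 5 of 10 and 2 of 13, so the low mitotic share was not seen in the wider list.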

How the data were processed

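H2A.Z and ANP32E occupancy was measured by chromatin immunoprecipitation and sequencing, with 1 library per antibody and condition. The authors deposited 1 table per antibody of regions merged over sham and TAC, giving for every library an average signal, a peak signal and whether a peak interval was present, per the file headers. Per the submitters' processing notes, BWA and SICER were used on build mm10. No version, scaling step or use of the input is given in the sources used here. Depth is therefore unknown, and counting error cannot be stated.

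Log2((TAC + 1)/(sham + 1)) of the average signal was computed, with a pseudocount of 1 that understates differences of weak regions. The threshold was 1.5-fold. Values are described beside all promoters of the same table, since 1 library per group allows no test. Coordinates are those of the tables or, for sequences, of RefSeq (GRCm38.p6). RefSeq starts lay within 100 bp of the start implied by the tables for 31 of 36 genes. Values are given in full for genes past 1.5-fold and for the 3 highest and 3 lowest ratios of each role. They are also given for the strongest and weakest promoter of each role and for genes with a promoter region of both proteins. Other members were added after their values were seen. Of the wider list, genes past 1.5-fold or else the 2 highest and 2 lowest are named. The genes, lists and motifs were chosen with earlier results of these data known. The scripts were tested on simulated data. Alternatives were peak values, the stronger 50% of promoters, a pseudocount of 0.1 or 5, ratios minus the median of all regions, a 2-fold threshold, promoters within 1000 bp or 5000 bp, and regions called in both conditions or counted once. Python 3.11.15, numpy 2.4.6, pandas 2.3.3 and matplotlib 3.10.9 were used.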

Additional observations from a re-analysis of the deposited data

How the results depend on the processing

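No paired analysis was possible because each group held 1 library. H2A.Z promoters were found at 31 genes within 1000 bp and at 43 within 5000 bp, and ANP32E promoters at 15 and 20, with 4 ANP32E promoters called in both conditions. Peak values moved the H2A.Z median from 0.027 to 0.16, the G1/S, replication and mitotic medians to 0.17, 0.14 and 0.21, and the count of higher promoters from 0 to 1 (2 in the wider list). The cause was not tested. In the stronger 50% of promoters the H2A.Z median was -0.029. No setting placed an H2A.Z promoter of the 43 past 1.5-fold on the low side.

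The ANP32E median of 0.13 was 0 with peak values, -0.13 in the stronger 50% of promoters, -0.022 in regions called in both conditions and 0.39 relative to the median of all regions. The 2 higher promoters became 0 with a pseudocount of 5, with a 2-fold threshold or in regions called in both conditions, 1 in the stronger 50% and 5 relative to that median. The lower count of 1 became 0 in the stronger 50% and in regions called in both. The G1/S median of 0.38 was 0.13 with peak values and -0.13 in the stronger 50% and in regions called in both, the replication median of -0.080 was 0.10 in the latter, and the mitotic median of 0.33 was 0.16 with peak values. For role medians, the restriction to regions called in both was added after seeing the data. Peak values moved the wider ANP32E list from -0.23 to -0.11, with 2 higher and 9 lower. Relative to the median of all regions, 4 of 15 ANP32E ratios turned sign, and peak values differed in sign or were 0 at 6. Without replicates, none of these differences can be set against a spread between animals.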
